A study of Mus musculus with 20 samples.

Results

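Expression of 10 genes that mark T cells and natural killer (NK) cells was followed library by library in sorted bone marrow progenitors of mice lacking Bcor, Dnmt3a or both. The genes were chosen by name, as Cd3e, Cd3g, Cd3d, Il2rb, Klrd1, Gzma, Prf1, Nkg7, Ccl5 and Gata3, 10 of the 24315 genes in the deposited tables, and each was found under its own symbol in both cell types. The choice used no measured threshold, but it was made with earlier results of these data known. The share of members called is therefore no independent support. PolyA RNA was measured in LSK cells (Lin-Sca1+Kit+, the compartment of stem cells and early progenitors) and in MEP cells, the shared progenitors of megakaryocytes and red cells (Lin-Sca1-Kit+CD34- with low or no FcγRII/III), both sorted from the bone marrow of C57BL/6 mice. Each cell type has 10 libraries: 3 from wild-type mice (WT), 3 from mice without Dnmt3a, 2 from mice without Bcor and 2 from Bcor-/-Dnmt3a-/- mice (double knockout), and the LSK and MEP libraries of a replicate come from the same mouse. The floxed alleles were deleted through Mx1-Cre, an interferon-inducible Cre that was switched on with pIpC and is active in many blood lineages. The names of all mutant libraries hold the word Cre and those of the WT libraries do not. Whether the WT mice carried Cre is not stated in these names. If they did not, effects of Cre cannot be told apart from those of the deleted genes. The labels give no age and no disease stage, while the text of the study calls the double knockout mice of its RNA comparison leukemic, and Bcor-/- replicate 1 is labelled with 2 mice in both cell types. A figure legend of the study gives 3 mice per genotype for the LSK comparison, while the 2 double knockout libraries are each labelled with 1 mouse.

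The CD3 chains are the invariant part of the T cell receptor: CD3ε, CD3γ and CD3δ pair with one another and carry the signal of the antigen receptor into the cell. NK cells lack this complex on their surface and are recognised by receptors such as CD94 (Klrd1), while both NK cells and cytotoxic T cells respond to IL-2 and IL-15 through the β chain encoded by Il2rb and kill by releasing perforin (Prf1) and granzymes (Gzma) from granules whose membrane holds Nkg7. Ccl5 is a chemokine of activated T and NK cells, and Gata3 is a transcription factor of T cell and innate lymphoid cell development that stem cells also express. The gates of both sorts leave out cells that carry mature lineage proteins on their surface.

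The 3 CD3 genes lie next to each other on chromosome 9. In the RefSeq annotation of GRCm38.p6, Cd3g and Cd3d are transcribed away from each other from starts 1355 bases apart, and the start of Cd3e lies 27825 bases from that of Cd3d. Since these neighbours moved together in the data, their 250 bases upstream of the RefSeq start are printed below with those of Nkg7, a member that moved differently. Capitals mark 4 motifs searched on both strands: TGTGGT for the RUNX family, AGGTGT for the T-box family, AGGAAG for the ETS family and AGATAA for the GATA family. All 4 windows are written 5′ to 3′ on the strand of the gene.
Cd3g, chr9:44980432-44980681, minus strand: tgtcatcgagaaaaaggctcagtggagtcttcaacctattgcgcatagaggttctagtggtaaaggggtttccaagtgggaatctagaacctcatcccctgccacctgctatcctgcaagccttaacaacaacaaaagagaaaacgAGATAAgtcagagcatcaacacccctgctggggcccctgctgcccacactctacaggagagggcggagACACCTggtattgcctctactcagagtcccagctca
Cd3d, chr9:44981536-44981785, plus strand: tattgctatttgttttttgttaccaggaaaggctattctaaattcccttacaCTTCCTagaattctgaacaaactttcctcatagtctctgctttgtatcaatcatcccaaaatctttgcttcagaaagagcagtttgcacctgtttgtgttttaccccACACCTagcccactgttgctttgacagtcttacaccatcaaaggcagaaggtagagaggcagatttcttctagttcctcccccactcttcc
Cd3e, chr9:45009612-45009861, minus strand: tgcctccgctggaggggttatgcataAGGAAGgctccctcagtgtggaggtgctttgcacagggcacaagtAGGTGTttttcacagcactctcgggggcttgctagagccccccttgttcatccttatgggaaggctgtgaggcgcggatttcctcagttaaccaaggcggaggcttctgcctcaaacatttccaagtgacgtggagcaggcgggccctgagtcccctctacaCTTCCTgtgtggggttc
Nkg7, chr7:43436888-43437137, plus strand: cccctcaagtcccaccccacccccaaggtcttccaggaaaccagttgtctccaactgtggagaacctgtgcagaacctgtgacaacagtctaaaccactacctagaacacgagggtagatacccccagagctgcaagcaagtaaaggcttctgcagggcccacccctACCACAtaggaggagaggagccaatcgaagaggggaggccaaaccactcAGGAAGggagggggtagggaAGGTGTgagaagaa
RefSeq windows were at hand for 7 of the 10 genes. The T-box letters occurred in 6 of the 7, all but Gata3, against 11.8% of 32851 windows of the same length in the table. The ETS letters occurred in 4 (29.5% of all windows), the RUNX letters in 3, Gzma, Prf1 and Nkg7 (14.0%), and the GATA letters in Cd3g alone (9.99%). None of the 16 matches overlapped another motif. Such matches describe the letters of the window and do not show that a factor binds there. The deposited tables are based on another build, mm9, and only these windows are given in GRCm38.p6.

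FPKM (fragment number divided by transcript length in kilobases and by library size) takes account of the length of a transcript, so that levels of different genes can be set side by side within a cell type. In WT LSK cells Nkg7 stood far above the other members, with 214, 228 and 207 FPKM in replicates 1, 2 and 3 (217 ± 10.7, SD, n = 3). Ccl5 followed with 10.2 ± 4.57 FPKM and Gata3 with 4.57 ± 0.912, then Il2rb with 2.63 ± 0.953 and Klrd1 with 1.77 ± 0.916 (SD, n = 3 each). Il2rb and Klrd1 did not differ beyond their spread. The WT means of Gzma, Cd3g, Cd3d, Prf1 and Cd3e in LSK lay between 0.223 and 1.10 FPKM, within reach of each other's spread. By an estimate from the values themselves, these levels may rest on very few fragments. For some low genes, the CD3 genes in LSK among them, the FPKM lay close to whole multiples of the value of 1 fragment, and by this step the 3 WT LSK libraries held an estimated 1, 3 and 0 fragments of Cd3e, 1, 3 and 3 of Cd3g and 2, 3 and 4 of Cd3d. The steps are the smallest that fit and give a lower limit of the fragment number.

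In WT MEP cells the order was Nkg7 (47.4 ± 18.98 FPKM), Ccl5 (15.7 ± 9.39), Il2rb (5.41 ± 2.23), Klrd1 (3.68 ± 1.18) and Gzma (2.96 ± 1.69, SD, n = 3 each), and the neighbours from Il2rb to Gzma lay within each other's spread. Cd3g had 0.984 ± 0.350, Gata3 0.780 ± 0.108, Prf1 0.666 ± 0.427, Cd3d 0.285 ± 0.137 and Cd3e 0.0377 ± 0.0654 FPKM (SD, n = 3 each). Cd3e was listed at 0 in 2 of the 3 WT MEP libraries. The tables of LSK and MEP were scaled separately, so levels are not compared across them. Read from the same single-fragment steps, the LSK libraries reached 0.789 to 1.32 times the depth of WT replicate 1, the MEP libraries up to 1.61 times, and the total number of fragments is not given.

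Before the comparisons, the double knockout libraries were set against the markers of the sorted cells, and they stood apart. In LSK, 8 of the 10 genes that define this compartment were lower in both double knockout libraries than in every other library. Cd34, the sialomucin of early progenitors, had 5.87 and 37.3 FPKM there against 265 to 650 in the other 8, and Kit, the receptor by which both populations were sorted, had 47.7 and 19.4 against 118 to 184. Ly6a, which encodes Sca1, had 63.5 and 220 FPKM, within and above the range of 31.1 to 107 in the other libraries. In MEP, Kit had 38.1 and 20.2 FPKM in the double knockout against 62.7 to 83.5, and 3 of the 8 MEP genes were below all other libraries. The LSK and MEP profiles of double knockout mouse 1 were close to each other, with a Pearson r of 0.973 across 12112 genes, where the other 9 replicates gave 0.808 to 0.891. The RNA of the deleted genes checks the labels only in part. In LSK, Bcor had 22.4 and 23.2 FPKM in Bcor-/- and 24.0 and 37.4 in the double knockout against 29.5 to 32.4 in WT, and Dnmt3a 10.4 and 10.9 in the double knockout and 11.3 to 16.9 in Dnmt3a-/- against 16.1 to 19.8. Dnmt3a also had 13.9 and 14.1 FPKM in Bcor-/- LSK, below WT and within the range of Dnmt3a-/-. In MEP, Dnmt3a had 6.85 FPKM in double knockout replicate 1, above the 5.49 to 6.64 of WT, and 3.44 in replicate 2, while Bcor had 19.6 and 26.7 in the double knockout and 19.5 and 22.4 in Bcor-/- against 21.3 to 26.9 in WT. A deletion of some exons need not remove the remaining transcript, and groups are named as labelled throughout.

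The first comparison asked whether T and NK cell genes differ between double knockout and WT LSK cells. They did for most members: the CD3 genes, both receptors, Gzma, Prf1 and Ccl5 were higher in both double knockout libraries than in any of the other 8 libraries, Nkg7 was lower than WT, and Gata3 went in opposite directions in the 2 mice. A gene was called at an unadjusted p under 0.05 in limma and a fold change above 1.5 on the log2(FPKM + 1) scale, the thresholds of the study's methods, and adjusted p-values are those of Benjamini and Hochberg over all genes tested. By this rule 8 of the 10 members were called higher and 1 lower, while 15.0% of the 11952 genes tested were called higher and 13.3% lower. Both double knockout libraries exceeded all other 8 for 8 of the 10 members and for 16.5% of the genes tested. Cd3e, Cd3g, Cd3d, Gzma and Prf1 reached the required mean of 1 FPKM only through the double knockout libraries, so that they could hardly be tested without differing. Of the 5 members that reached it in the other 8 libraries, Il2rb, Klrd1 and Ccl5 were called higher and Nkg7 lower, against 27.1% of 11626 genes called in either direction under this filter. In bulk libraries fewer cells of a type and less RNA per cell cannot be told apart.

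Among the CD3 genes, Cd3g had 12.3 and 57.3 FPKM in double knockout LSK replicates 1 and 2, against 0.224, 0.766 and 0.855 in WT, 0, 0.217 and 0 in Dnmt3a-/- and 0.199 and 0.170 in Bcor-/-. These are an estimated 62 and 218 fragments in the double knockout and an estimated 0 to 3 in the other LSK libraries. The log2 fold change against WT was 4.13 (SE 0.52, adjusted p = 0.000552). All 3 CD3 genes were tested only because the double knockout libraries raised their means. Their p-values cannot be read apart from that selection. Cd3d had 5.11 and 41.0 FPKM against 0.330, 0.564 and 0.837 in WT, 0.478, 0.639 and 0.287 in Dnmt3a-/- and 0.292 and 0.250 in Bcor-/-, and its log2 fold change was 3.36 (SE 0.64, adjusted p = 0.00459). Cd3e had 8.03 and 20.4 FPKM against 0.151, 0.517 and 0 in WT, 0, 0.293 and 0.263 in Dnmt3a-/- and 0 and 0.115 in Bcor-/-. Its log2 fold change was 3.53 (SE 0.38, adjusted p = 0.000267). For all 3 genes the lower double knockout library was at least 6.11 times the highest of the other 8, and replicate 2 exceeded replicate 1, by 2.54 times for Cd3e, 4.65 times for Cd3g and 8.02 times for Cd3d.

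The 2 receptor genes were low but detected in the other genotypes. Il2rb had 20.2 and 80.4 FPKM in double knockout LSK against 1.97, 3.72 and 2.204 in WT, 1.17, 0.880 and 1.52 in Dnmt3a-/- and 1.41 and 1.21 in Bcor-/-. The groups did not overlap, and the log2 fold change against WT was 3.55 (SE 0.48, adjusted p = 0.000769). Klrd1 had 17.6 and 56.1 FPKM against 1.10, 2.81 and 1.40 in WT, 1.86, 2.66 and 1.43 in Dnmt3a-/- and 1.46 and 0.627 in Bcor-/-, with a log2 fold change of 3.60 (SE 0.46, adjusted p = 0.000598). Here too replicate 2 was the higher one, by 3.99 times for Il2rb and 3.19 times for Klrd1.

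The granule genes did not move as one. Gzma and Prf1 reached the filter only through the double knockout libraries, and their p-values cannot be read apart from that selection. Gzma, the granzyme A gene, had 10.8 and 20.6 FPKM in double knockout LSK, an estimated 45 and 65 fragments, against 0.270, 0.615 and 2.41 in WT and 0.205 to 0.718 in the 5 single knockout libraries, and its log2 fold change was 3.06 (SE 0.43, adjusted p = 0.000957). Prf1 had 3.86 and 3.57 FPKM against 0.406, 0.696 and 0.386 in WT and 0.294 to 0.809 in the single knockouts, a log2 fold change of 1.66 (SE 0.28, adjusted p = 0.00240). It was the only member at a like level in both double knockout LSK libraries. Nkg7, in contrast, had 56.8 and 162 FPKM against 214, 228 and 207 in WT, so that both double knockout libraries lay below all WT libraries (log2 fold change -1.16, SE 0.36, adjusted p = 0.0385). This call rested on replicate 1: without it the log2 fold change was -0.41 at an unadjusted limma p of 0.0623.

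Ccl5 had the largest fold change of the 10 genes in LSK on the log2(FPKM + 1) scale, which understates low genes. As a plain ratio of the double knockout mean to the mean of the other 8 libraries, Cd3g (115), Cd3e (84.9) and Cd3d (50.1) stood above Ccl5 (32.5). Ccl5 rose to 123 and 370 FPKM against 5.31, 14.4 and 10.9 in WT, 10.7, 5.65 and 5.99 in Dnmt3a-/- and 5.64 and 2.02 in Bcor-/- (log2 fold change 4.35, SE 0.55, adjusted p = 0.000550). In both double knockout LSK libraries Ccl5 was more abundant than Nkg7, the most abundant member in the other 8. Gata3 had 1.05 FPKM in replicate 1, below the other 8 libraries (3.24 to 5.46), and 13.8 in replicate 2, above them, 13.0 times the first. Against WT (3.64, 5.46 and 4.61 FPKM) its log2 fold change was 0.00 (SE 0.64, adjusted p = 0.999), and with 1 double knockout library left out it was called in either direction, at 1.42 without replicate 1 and -1.43 without replicate 2.

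**Figure D1:**
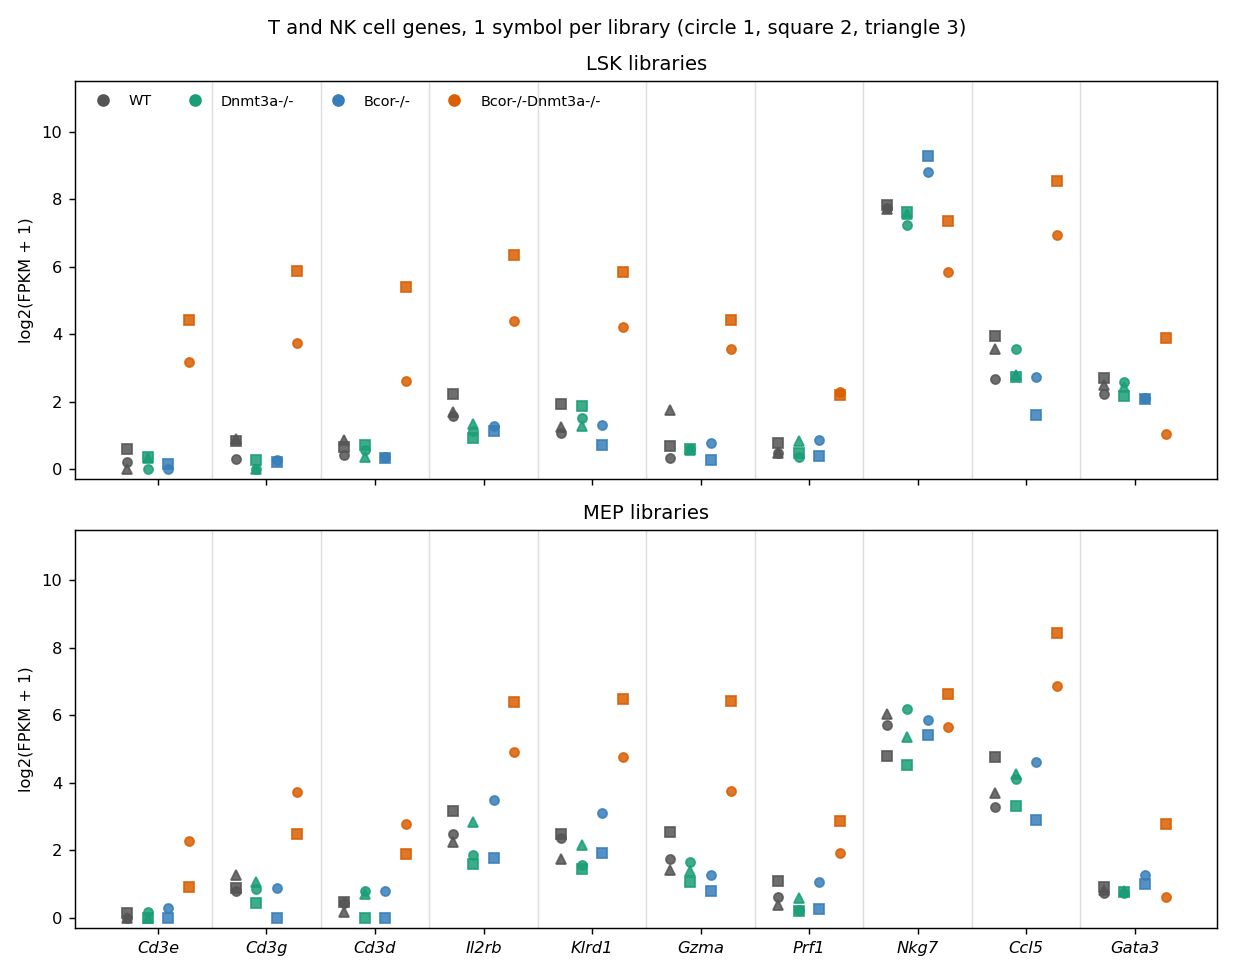
Level of each of the 10 genes as log2(FPKM + 1) in every LSK library (top) and MEP library (bottom), coloured by genotype with 1 symbol per library. The double knockout libraries lie above the other 8 for 8 genes in each cell type. Nkg7 and Gata3 are the exceptions.

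The same comparison was made in MEP cells. Il2rb, Klrd1, Gzma, Prf1, Ccl5, Cd3g and Cd3d were called higher in the double knockout, 7 of the 9 members tested, and Nkg7 and Gata3 passed no test. Of the 10933 genes tested in MEP, 18.5% were called higher. Cd3e stayed under a mean of 1 FPKM and was not tested, and without a filter it was called higher (log2 fold change 1.54, adjusted p = 0.0146 in limma). Cd3g, Cd3d, Prf1 and Gata3 reached the mean only through the double knockout libraries, and of the 5 that reached it in the other 8 libraries, Il2rb, Klrd1, Gzma and Ccl5 were called higher, against 15.8% of 10466 genes under this filter. Both double knockout libraries exceeded the other 8 for 8 of the 10 members, Cd3e included, and for 20.7% of the genes tested.

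Klrd1, Il2rb, Gzma, Prf1 and Ccl5 in MEP were higher in both double knockout libraries than in the other 8. Klrd1 had 26.2 and 87.6 FPKM in the double knockout against 4.17, 4.54 and 2.34 in WT, 1.96, 1.75 and 3.50 in Dnmt3a-/- and 7.68 and 2.77 in Bcor-/- (log2 fold change 3.42, SE 0.53, adjusted p = 0.00247). Il2rb had 28.8 and 83.7 FPKM against 4.57, 7.94 and 3.71 in WT, 2.62, 2.03 and 6.14 in Dnmt3a-/- and 10.2 and 2.43 in Bcor-/- (log2 fold change 3.03, SE 0.63, adjusted p = 0.00792). For both genes Bcor-/- replicate 1 was the highest of the other 8 libraries. Gzma had 12.6 and 84.5 FPKM, an estimated 50 and 319 fragments, against 2.34, 4.87 and 1.67 in WT and 0.725 to 2.17 in the single knockouts, with a log2 fold change of 3.19 (SE 0.68, adjusted p = 0.00886). Prf1 had 2.75 and 6.35 FPKM against 0.548, 1.14 and 0.312 in WT and 0.161 to 1.07 in the single knockouts (log2 fold change 1.69, SE 0.39, adjusted p = 0.0124). Ccl5 had 115 and 343 FPKM against 8.66, 26.3 and 11.99 in WT and 6.43 to 23.3 in the single knockouts (log2 fold change 3.73, SE 0.66, adjusted p = 0.00408). In all 5 genes replicate 2 was the higher double knockout library, by 2.31 times for Prf1 to 6.70 times for Gzma. Prf1 reached the filter only through the double knockout libraries, so its p-value cannot be read apart from that selection.

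The CD3 genes ran the other way between the 2 mice in MEP. Cd3g and Cd3d were tested there only through the double knockout libraries, which limits what their p-values mean. Cd3g had 12.4 FPKM in replicate 1 and 4.61 in replicate 2, an estimated 59 and 21 fragments, against 0.728, 0.841 and 1.38 in WT, 0.799, 0.356 and 1.10 in Dnmt3a-/- and 0.846 and 0 in Bcor-/- (log2 fold change 2.14, SE 0.42, adjusted p = 0.00667). Cd3d had 5.85 and 2.74 FPKM against 0.356, 0.371 and 0.127 in WT and 0 to 0.746 in the single knockouts (log2 fold change 1.98, SE 0.40, adjusted p = 0.00677). Cd3e, which stayed under the filter in MEP, had 3.81 and 0.887 FPKM, an estimated 27 and 6 fragments, against 0, 0.113 and 0 in WT, 0.134, 0 and 0 in Dnmt3a-/- and 0.228 and 0 in Bcor-/-. Replicate 2 thus had 0.233 to 0.469 times the level of replicate 1 for the 3 genes. With 1 variance per genotype in the model, a setting that lets the double knockout spread more widely than WT, only Cd3g, Klrd1 and Gzma were called in MEP, while Cd3d, Il2rb, Prf1 and Ccl5 had unadjusted limma p-values of 0.0660, 0.0992, 0.0868 and 0.0533.

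Nkg7 in MEP had 48.9 and 97.4 FPKM in the double knockout against 51.3, 26.8 and 64.2 in WT, 71.1, 22.2 and 39.7 in Dnmt3a-/- and 57.3 and 41.5 in Bcor-/-, so that the groups overlapped (log2 fold change 0.62, SE 0.52, adjusted p = 0.384). Gata3 again split the mice, with 0.528 FPKM in replicate 1 and 5.83 in replicate 2 against 0.677, 0.893 and 0.770 in WT (log2 fold change 0.86, SE 0.52, adjusted p = 0.229). Without replicate 1 it was called at a log2 fold change of 1.94.

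**Figure D2:**
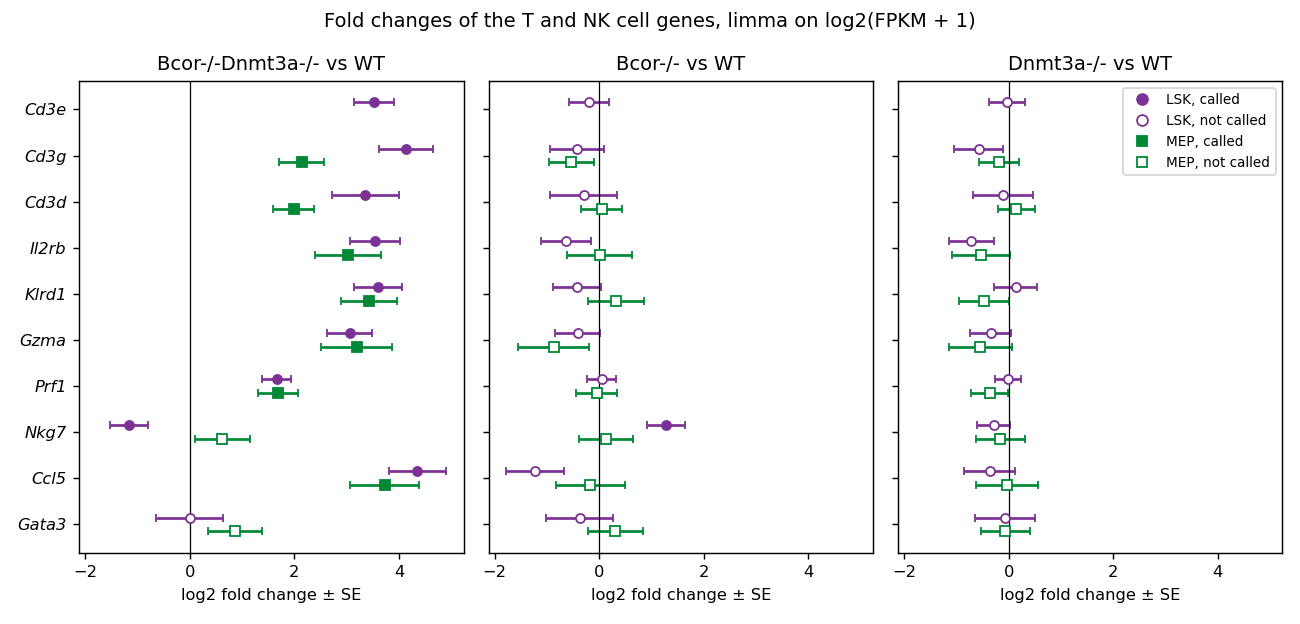
Log2 fold change against WT with its standard error for each gene in LSK (circles) and MEP (squares), for the 3 mutant genotypes. Filled symbols passed an unadjusted limma p under 0.05 and a fold change above 1.5, and Cd3e was not tested in MEP. In the double knockout 9 members of LSK and 7 of MEP are filled, and among the single knockouts Nkg7 in Bcor-/- LSK alone.

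The balance between CD3 and NK or cytotoxic genes within a library does not depend on how libraries were scaled. The summed FPKM of Il2rb, Klrd1, Gzma and Prf1 was 2.06 and 1.35 times that of the 3 CD3 genes in double knockout LSK replicates 1 and 2, below the 3.78 to 8.96 of the other 8 LSK libraries. In double knockout MEP the ratio was 3.19 in replicate 1 and 31.8 in replicate 2. The other MEP libraries with a CD3 level above 0 gave 4.16 to 14.1, and in Bcor-/- replicate 2 all 3 CD3 genes were listed at 0. The MEP library of mouse 2 therefore held high NK and cytotoxic levels with little CD3 relative to them. Its CD3 sum of 8.24 FPKM still exceeded the 0 to 1.82 FPKM of the 8 MEP libraries outside the double knockout. The other 3 double knockout libraries held more CD3 relative to the NK and cytotoxic genes than any library of another genotype. The CD3 sums of the 8 LSK libraries outside the double knockout were as low as 0.478 to 1.85 FPKM. The ratios outside the double knockout therefore rest on very low CD3 levels in both cell types and are imprecise. The 3.19 of MEP replicate 1 lay close to the lowest of them, 3.78. These ratios are given as a description, with no test.

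**Figure D3:**
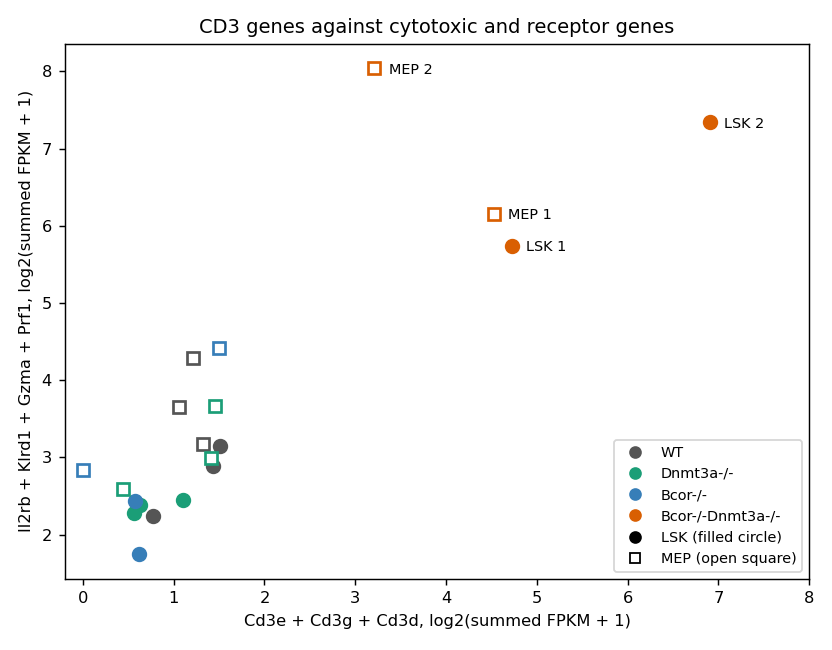
Summed FPKM of Il2rb, Klrd1, Gzma and Prf1 (vertical) against that of Cd3e, Cd3g and Cd3d (horizontal), both as log2(sum + 1), with filled circles for LSK and open squares for MEP libraries. The 4 double knockout libraries are labelled by cell type and replicate, and MEP 2 lies highest on the vertical axis with the lowest CD3 sum of the 4.

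Whether the double knockout effect itself differed between LSK and MEP was tested on the LSK minus MEP difference of each mouse. A constant factor between the separately scaled tables drops out of it for abundant genes, but not in full for genes near or under 1 FPKM, such as Cd3e and Cd3g outside the double knockout and Gata3 in MEP. Genes that reached a mean of 1 FPKM in either cell type entered, so that Cd3e was tested through its LSK level, and Cd3e and Cd3g entered only because their double knockout libraries were high. The effect was larger in LSK for Cd3e (difference of log2 fold changes 1.99, SE 0.62, adjusted p = 0.05003) and Cd3g (1.99, SE 0.80, adjusted p = 0.104), and lower in LSK for Nkg7 (-1.78, SE 0.58, adjusted p = 0.0570) and Gata3 (-0.87, SE 0.27, adjusted p = 0.0479). These 4 of 10 members were called at the unadjusted p, against 29.4% of the 12112 genes tested. The differences of Cd3d (1.37, SE 0.88), Ccl5 (0.62, SE 0.32), Il2rb (0.52, SE 0.44), Klrd1 (0.18, SE 0.40), Gzma (-0.13, SE 0.67) and Prf1 (-0.02, SE 0.32) passed no test. Without double knockout replicate 2 the difference of Cd3e was 0.69 and that of Cd3g 0.30, and neither was called.

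The single knockouts were compared with WT in the same models. In Bcor-/- LSK, Nkg7 was the only member called, at 448 and 615 FPKM against 207 to 228 in WT (log2 fold change 1.27, SE 0.36, unadjusted p = 0.00625, adjusted p = 0.0661 in limma). This is 1 of 10 members, where 13.2% of all genes were called. Both Bcor-/- libraries exceeded every other LSK library, and without Bcor-/- replicate 2 the log2 fold change was 1.04 with an unadjusted limma p of 0.0583. Ccl5 had 5.64 and 2.02 FPKM against 5.31 to 14.4 in WT (log2 fold change -1.23, SE 0.55, adjusted p = 0.205), and Il2rb 1.41 and 1.21 against 1.97 to 3.72 (-0.62, SE 0.48, adjusted p = 0.470). When only Bcor-/- and WT libraries entered the model, Nkg7, Ccl5 and Il2rb were called. Of the 25 other NK and cytotoxic genes tested, 2 were called higher and 8 lower in Bcor-/- LSK, among them the chemokine genes Ccl3 (-1.51, adjusted p = 0.0205) and Ccl4 (-1.68, adjusted p = 0.0240), and of the 25 other T cell genes Lck (-0.84, adjusted p = 0.170) and Lat (-0.90, adjusted p = 0.107) were called lower and none higher.

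Nkg7 did not stand alone in Bcor-/- LSK. Mpo, Elane, Prtn3 and Ctsg, proteases and the peroxidase of the primary granules of neutrophil precursors, had log2 fold changes of 2.68, 3.46, 2.90 and 2.80 (adjusted p = 0.0286, 0.0267, 0.0214 and 0.0305), and Cst7, an inhibitor of granule proteases in myeloid and NK cells, 1.74 (adjusted p = 0.0647). Mpo had 4710 and 8426 FPKM in Bcor-/- LSK, 785 to 1532 in WT and 221 and 891 in the double knockout, and Elane 3351 and 5593, 217 to 812 and 154 and 703. For Nkg7, Mpo and Elane double knockout replicate 1 was the lowest LSK library and Bcor-/- replicate 2 the highest. In the double knockout, though, Mpo (-1.14, adjusted p = 0.161) and Elane (-0.26, adjusted p = 0.816) were not called. Of the 13 granulocyte genes 3 were called higher there and none lower (median 1.04), against 15.0% and 13.3% of all genes in that comparison. Of the granulocyte list, 5 of 13 genes were called higher and 1, Retnlg (-1.48, adjusted p = 0.0965), lower in Bcor-/- LSK, where 13.2% of all genes were called, and the summed level of the list over the 8 libraries outside the double knockout ranged from 2682 to 25439 FPKM. The part of granulocyte precursors in the level of Nkg7 was not tested. Among all tested genes, the level of Nkg7 across the 10 LSK libraries was most like that of Gpr160 (Pearson r = 0.994), followed by Pxylp1, Rab27a, Siglecf and Cd63, genes looked up after the values had been seen.

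**Figure D4:**
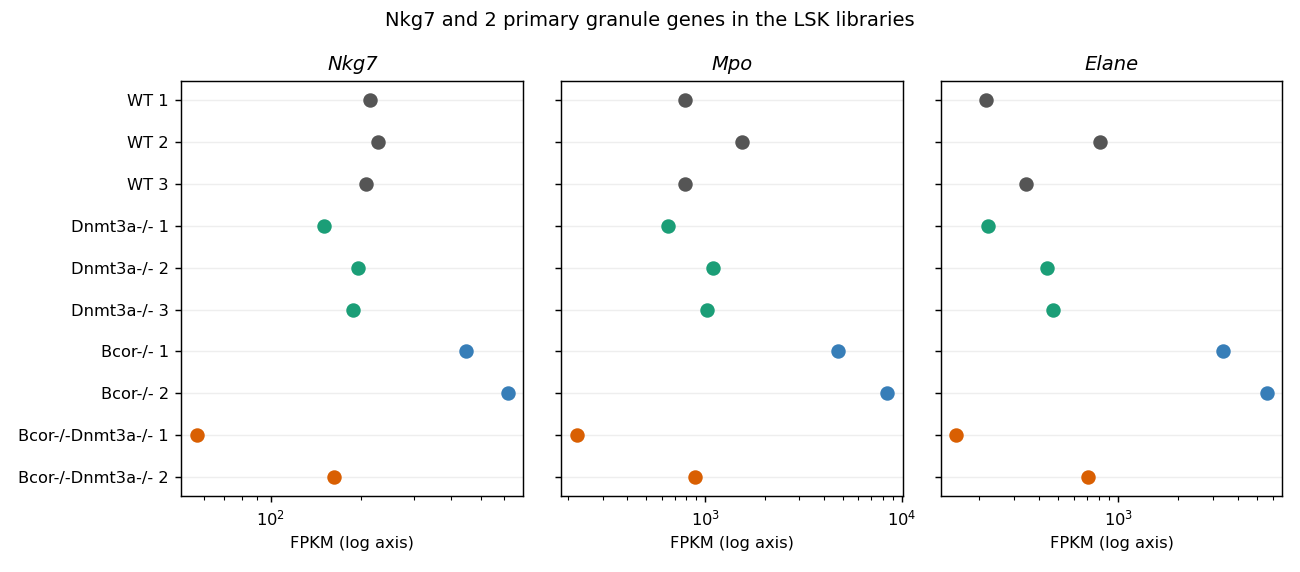
FPKM of Nkg7, Mpo and Elane in the 10 LSK libraries on log axes, coloured by genotype. The Bcor-/- libraries are the 2 highest in each panel, with Nkg7 at 448 and 615 FPKM, and double knockout replicate 1 is the lowest.

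No member was called in Bcor-/- MEP, where 2.76% of genes were, in Dnmt3a-/- LSK (0.443%) or in Dnmt3a-/- MEP (0.412%), and the count of members at an unadjusted limma p under 0.05 was 0 in each. The lowest unadjusted limma p-values were 0.233 for Gzma in Bcor-/- MEP, 0.131 for Il2rb in Dnmt3a-/- LSK and 0.328 for Prf1 in Dnmt3a-/- MEP. Models with only the compared genotypes, or with 1 variance per genotype, called 1 member in Dnmt3a-/- LSK, Il2rb at 1.17, 0.880 and 1.52 FPKM against 1.97 to 3.72 in WT. A pseudocount of 0.1 called Cd3g there instead. With 1 variance per genotype Gzma was called in Bcor-/- MEP, at 1.43 and 0.725 FPKM against 1.67 to 4.87.

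Further genes of T and NK cells were read from 2 lists. Of 28 other T cell genes 25 were tested in LSK, and 19 were called higher and 1 lower in the double knockout, with a median log2 fold change of 2.27 against 0.02 over all genes, of which 15.0% were called higher. As for the members, part of the list was tested only because the double knockout libraries raised its mean: 13 of these genes reached 1 FPKM in the other 8 libraries, of which 8 were called higher and 1 lower, against 13.1% of genes called higher under this filter. Of the 5 largest changes, that of Il7r alone was among these 13 genes. The largest were Cd2, an adhesion receptor of T and NK cells (4.66, adjusted p = 0.000858), Lef1, a transcription factor of T and B cell precursors (4.58, adjusted p = 0.000247), Il7r, the IL-7 receptor of early lymphoid cells (4.18, adjusted p = 0.00127), Skap1, an adaptor of T cell adhesion (3.73, adjusted p = 7.21e-05), and Cd8b1, the CD8 β chain (3.72, adjusted p = 0.00439). Cd27, a costimulatory receptor that multipotent progenitors also carry, was the gene called lower (-2.93, adjusted p = 0.000731). In MEP 20 of these genes were tested, 16 were called higher and 1, Ubash3a, lower, where 18.5% of all genes were called higher, and of the 10 that reached the mean in the other 8 libraries 6 were higher and 1 lower. Skap1 (3.12), Cd2 (3.01), Thy1 (2.97), Il7r (2.75, adjusted p = 0.0982) and the checkpoint receptor Ctla4 (2.60) led there, of which Skap1 and Ctla4 reached the mean only through the double knockout.

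The 2 mice differed in their T cell genes as well. In double knockout LSK, Cd28 had 1.14 FPKM in replicate 1 and 34.6 in replicate 2 against 0.595 to 3.45 in the other 8 libraries, Ctla4 4.22 and 131 against 0.247 to 3.36, and Cd8b1 6.53 and 52.5 against 0 to 1.58. Il7r and Lef1, which are not genes of T cells alone, were higher in replicate 1 instead, at 194 and 62.6 FPKM, with 32.7 and 15.9 in replicate 2. Most genes of the B cell list were also higher in replicate 1, such as Vpreb1 (878 and 1.88 FPKM) and Igll1 (996 and 1.60). Of that list Cd79b, Ms4a1 and Blnk were higher in replicate 2. The part of B cell precursors in the levels of Il7r and Lef1 was not tested. In MEP, Cd4, the coreceptor of helper T cells, had 11.1 FPKM in replicate 1 and 0.959 in replicate 2, against at most 0.295 elsewhere, and Cd8b1, which was listed at 0 in the other 8 MEP libraries, had 3.30 and 2.40.

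Of 31 other NK and cytotoxic genes, 25 were tested in LSK, where 13 were called higher and 5 lower in the double knockout (median log2 fold change 1.01), against 15.0% of all genes called higher and 13.3% lower. Of the 18 that reached 1 FPKM in the other 8 libraries, 6 were higher and 5 lower, and Ifng, Klra7 and Eomes were not among these. Ifng, the interferon γ gene (2.88, adjusted p = 0.0251), Klrk1, the NKG2D receptor (2.81, adjusted p = 0.00352), Klra7, a Ly49 receptor (2.53, adjusted p = 0.000303), and Eomes, a T-box factor of NK cells (2.45, adjusted p = 0.000753), were among the higher ones. The chemokine gene Ccl3 was lower (-2.49, adjusted p = 0.000256), with 23.3 and 41.7 FPKM against 153 to 216 in WT LSK, where it was far above the NK receptors. In MEP 27 were tested and 19 called higher, none lower (median 1.99), against 18.5% of all genes called higher, and 11 of the 18 that reached the mean in the other 8 libraries were higher, against 15.8%. The list was led by Klrb1c (2.66), Cd244 (2.65), Klrk1 (2.61), Klra7 (2.51) and Klre1 (2.496). Ncr1, the NK receptor NKp46, had 9.83 and 7.11 FPKM in double knockout LSK against 0.225 to 1.97 in the other libraries, and 22.0 and 37.9 in MEP against 1.18 to 8.14. Gzmk, a granzyme of T cells, was listed at 0 in all 16 libraries outside the double knockout and had 3.55 and 1.08 FPKM in double knockout LSK and 2.01 and 0.302 in MEP. Ly49 and NKG2 receptors belong to families of similar sequence, and their single values are uncertain for that reason.

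Marker lists of several other lineages were also high in these libraries, and others were low. In double knockout LSK the summed FPKM of 13 B cell genes was 4149 and 1427 against 41.8 to 132 in the other 8 libraries, that of 11 erythroid genes 6916 and 24422 against 420 to 673, that of 9 dendritic cell genes 2264 and 5298 against 379 to 1210, and that of 10 macrophage genes 1744 and 130 against 49.3 to 365. The summed level of the 28 other T cell genes was 537 and 1053 FPKM against 133 to 260, and that of the 31 other NK and cytotoxic genes, Ccl3 included, 346 and 595 against 380 to 830. The sum is carried by abundant genes such as Ccl3, and the mean log2(FPKM + 1) over the NK list was 2.56 and 3.45 against 1.73 to 2.1997 in the other 8 libraries. The 8 megakaryocyte genes were lower, at 16.2 and 59.4 FPKM against 139 to 216, as were the 11 genes of ILC2, mast cells and basophils, at 13.7 and 59.7 against 64.9 to 251, and the granulocyte list lay within the range of the other libraries. In double knockout MEP the B cell genes summed to 3375 and 161 FPKM against 23.9 to 231, the 13 granulocyte genes to 7139 and 16114 against 331 to 1095, the macrophage genes to 906 and 37.6 against 8.91 to 13.3, and the T cell genes to 448 and 295 against 51.2 to 78.9. In both cell types replicate 1 had the higher sum of B cell and macrophage genes and replicate 2 that of erythroid genes, though both replicates exceeded the other 8 libraries for B cell genes in LSK, macrophage genes in MEP and erythroid genes in both. By the test used for the members 9 of the 13 B cell genes were called higher in LSK and 7 in MEP, none lower, against 15.0% and 18.5% of all genes, and of those that reached the mean in the other 8 libraries 5 of 9 and 5 of 10, against 13.1% and 15.8%. Among the genes that define T cells, Cd3e and Cd8a stayed at or under 0.669 FPKM in the 16 libraries outside the double knockout, but others were not near 0 there: in LSK, Cd4 had 1.49 to 7.70 FPKM, Lck, a kinase of T cell receptor signaling, 10.3 to 26.8 and Lat, its adaptor, 10.5 to 41.8. The part of mature T, NK, B or other cells in the levels of the 10 genes was not tested.

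**Figure D5:**
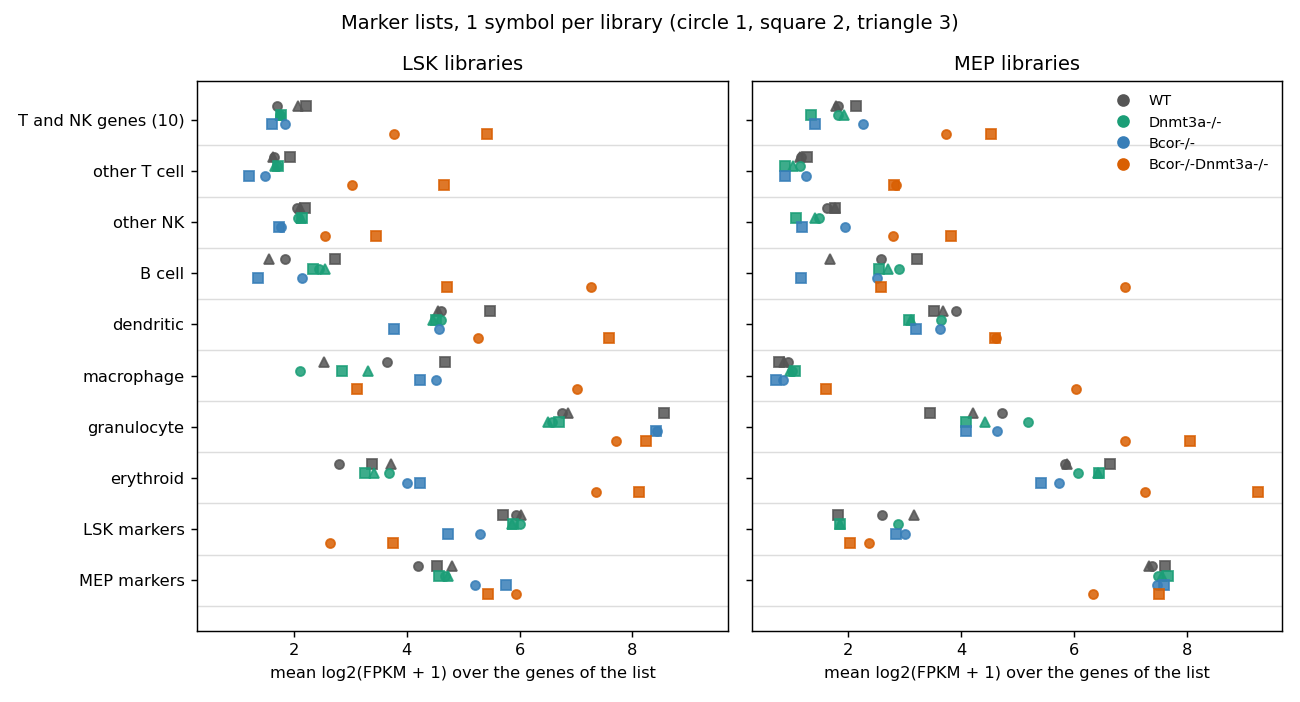
Mean log2(FPKM + 1) over the genes of each marker list in every library of LSK (left) and MEP (right), coloured by genotype, with 1 symbol per library. In the double knockout the 10 genes and the T, NK, B cell and erythroid lists lie to the right in LSK, while the LSK markers lie to the left.

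The genes whose pattern over the 10 libraries was most like the mean log2 level of the tested members were, in LSK, Gimap3 (Pearson r = 0.996), Klrk1 (0.993), Tmcc2, Ptpn22 and Cacna1e (0.991 each), and in MEP Gimap3 (0.993), Ms4a4b, Sh2d2a and Klrk1 (0.991 each) and Xdh (0.989). These correlations describe 10 libraries, and the 2 double knockout libraries carry most of the range. In GENCODE M21, Cd3e shares exonic sequence with a gene on the opposite strand and Gata3 with genes on both strands. Whether fragments were assigned by strand is not given in the sources used here, so that fragments of these neighbours cannot be told apart from theirs. The other 8 genes share no exon with another annotated gene.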

How the data were processed

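PolyA RNA of LSK and MEP cells was sequenced in 20 libraries, and the FPKM the authors deposited, in 1 table for LSK and 1 for MEP, were used unchanged. The submitters' processing notes name STAR 2.5.1b, SAMtools 1.9, Cufflinks 2.2.1 and the build mm9. The annotation, the strand setting and the scaling between libraries are not given in the sources used here, and no read counts were used. All columns were mapped to a labelled sample.

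Log2(FPKM + 1) was analyzed with limma 3.58.1 in R 4.3.3 (moderated test with a mean-variance trend, two-sided) for genes whose FPKM averaged at least 1 in the 10 libraries of the cell type, with all 4 genotypes in 1 model. Fold changes on this scale understate those of low genes. A call needed a fold change above 1.5 and an unadjusted p under 0.05, thresholds taken over from the study. Benjamini-Hochberg values cover all genes tested. The double knockout effect was compared between cell types on the LSK minus MEP difference of each mouse named in the titles. Mice are separate, but Bcor-/- and double knockout groups have only 2 libraries.

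Fragment numbers were estimated where the FPKM of a gene at up to 12 steps lay within 0.1 of whole multiples of 1 step, in at least 4 libraries for steps of 1 or 2 and 6 otherwise. This held for 6 of the 10 genes in LSK and 5 in MEP. Promoters are RefSeq windows of GRCm38.p6. Python 3.11.15 with matplotlib 3.10.9 made the figures. The procedure was tested on simulated data in which the double knockout had the spread of the other genotypes. That check does not cover the wide differences between the double knockout mice.

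The 10 genes and all lists were chosen with earlier results of these data known, so lists of genes that move with them are no independent support. Named are the 10 genes, the 5 largest called changes of each of the other T and NK lists, the 5 genes of most similar pattern, and marker genes that check a label or move with the members. Cd28, Cd4, Ncr1, Gzmk and the genes most like Nkg7 were added after their values had been seen. The alternatives were a pseudocount of 0.1, no filter, 1 FPKM in 2 libraries, quantile normalization, median centring, a block for the replicate number, only the compared genotypes, no trend, 1 variance per genotype, the adjusted p and leaving out each library. A filter on the 8 libraries outside the double knockout was added after seeing the data.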

Additional observations from a re-analysis of the deposited data

Results flagged for a closer look

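The double knockout effect differed between LSK and MEP, by limma's test of the LSK minus MEP difference of each mouse at the unadjusted p, for 4 of the 10 genes, where 29.4% of the 12112 genes tested were called, a share that does not set the members apart. The difference of log2 fold changes was 1.99 for Cd3e, 1.99 for Cd3g, -1.78 for Nkg7 and -0.87 for Gata3, and Gata3 alone passed with the adjusted p (0.0479), or none without a filter on low values (0.0674). The difference of Gata3 was -0.52 without double knockout replicate 1, and its call was lost in 3 of 21 other settings, that of Cd3g in 8 of 20. Cd3e and Cd3g entered this test only because their double knockout libraries were high, and their calls cannot be read apart from that selection. Their differences also rested on mouse 2: without it they were 0.69 and 0.30, and neither was called. Nkg7 was below WT in LSK and overlapped WT in MEP, and Gata3 had a log2 fold change of 0.00 in LSK and 0.86 in MEP.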

How the results depend on the processing

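The double knockout calls held under most settings, but with a double knockout library left out the counts below do not hold the same members. In LSK, Gata3 entered them, at a log2 fold change of 1.42 without replicate 1 and -1.43 without replicate 2. Nkg7 left them without replicate 1 (-0.41), Cd3d without replicate 2 and Prf1 without either. In MEP, Gata3 entered without replicate 1 (1.94), while Cd3d left without either and Prf1 without replicate 2. In LSK 9 members were called, 8 or 9 when 1 library was left out, and 4 of 5 when the filter used only the 8 other libraries. In MEP 7 were called, 8 without a filter (Cd3e added), 5 to 7 with 1 library left out, 3 with 1 variance per genotype and 4 of 5 under that filter, which tests fewer genes. The 1 member called in Bcor-/- LSK became 2 with a pseudocount of 0.1 or quantile normalization, 3 with only the compared genotypes or 1 variance per genotype, 0 with the adjusted p, and 0 to 3 with 1 library left out. The 0 called in Dnmt3a-/- LSK became 1 with a pseudocount of 0.1, with only the compared genotypes or with 1 variance per genotype, and 0 to 1 with 1 library left out. The 0 in Bcor-/- MEP became 1 with 1 variance per genotype and 0 to 1 with 1 library left out, and Dnmt3a-/- MEP stayed at 0 under all 21 settings. The 4 members whose effect differed between cell types became 2 with a pseudocount of 0.1, 1 with 1 variance per genotype, 1 with the adjusted p, 2 under the filter without the double knockout and 2 to 5 with 1 library left out. The causes were not tested. The log2 fold change of Gata3 in double knockout LSK turned from 0.00 to 0.040 with quantile normalization, and ranged from -1.43 to 1.42 with 1 library left out (0.11 without WT replicate 2, 0.01 without WT replicate 3, 1.42 without double knockout replicate 1). Of 486 values of single members under other settings 455 kept direction and call, 24 lost the call, 2 gained it and 5 reversed, all of Gata3. Prf1 in LSK fell below the filter without either double knockout library, as did Cd3d without replicate 2. In MEP, Cd3d fell below it without either, so that leaving out a mouse could not check its call, and Prf1 and Gata3 without replicate 2.

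Same-numbered libraries of different genotypes did not deviate together in LSK (r from -0.06 to 0.09). In MEP r ran from -0.19 to 0.34, with 8 of 13 pairs above 0.1 and 7 of 10 libraries most like their own number, against 2 of 10 in LSK. As some pairs stayed under 0.1, the numbers were not taken as pairs. With the replicate number as a block, 9 members were called in double knockout LSK, 7 in MEP and 4 for the difference between cell types, and the log2 fold change of Gata3 in LSK was 0.014. The block changed no call of a member.

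Quantile normalization moved the median of all genes in the double knockout MEP comparison from 0.02 to -0.17 and median centring to -0.14, and the 7 calls were kept in number under both. The total depth is unknown, and the CD3 genes of WT and single knockout LSK libraries rest on an estimated 0 to 4 fragments each, a lower limit. Their differences, the call of Cd3g at a pseudocount of 0.1 included, are therefore taken as imprecise.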
